A study of Danio rerio with 21 samples.

Results

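Livers of 7 dpf zebrafish larvae that lacked *xbp1* were set against livers that lacked *atf6*, both on the *sec31a* nju221 background. The *xbp1* double mutant (sec31a nju221; xbp1-/-, 3 libraries) and the *atf6* double mutant (sec31a nju221; atf6-/-, 3 libraries) made up 6 of the 21 RNA-seq libraries of the study, which covered 7 genotypes. All 6 libraries share the homozygous nju221 gene trap in *sec31a*, which encodes an outer coat protein of the COPII vesicles that take cargo out of the endoplasmic reticulum (ER) towards the Golgi. The trapped gene still makes a fusion protein that lacks its C-terminal end, so nju221 is a partial loss of function in every cell of the larva, and *xbp1* and *atf6* were removed by CRISPR/Cas9 deletions in the whole animal, not in the liver alone. Levels in the libraries labelled *atf4a/b* DKO, in *sec31a* nju221 alone and in wild type (WT) are given only beside those of these double mutants, as are a few from the double mutants that lack *srebf1* or *srebf2*. Of the 32520 genes counted, 20526 had at least 1 CPM (counts scaled to a common library total) in one of the double mutants and are described here.

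Xbp1 and Atf6 are the transcription factors of separate arms of the unfolded protein response, the programme by which a cell with misfolded protein in its ER enlarges its capacity to fold, export and destroy protein. The sensor Ire1 splices *xbp1* mRNA and thereby lets it encode an active factor, whereas Atf6 is itself an ER membrane protein that is cut in the Golgi by the site-1 and site-2 proteases to release its factor. In mammals Atf6 is known mostly for inducing ER chaperones, and Xbp1 for inducing the translocon, ER-associated degradation and secretory pathway genes. The third arm runs through the kinase Perk and Atf4, which induces amino acid synthesis genes and aminoacyl-tRNA synthetases. The liver depends on this response because hepatocytes export most plasma proteins.

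The 3 libraries of a genotype differed by little more than sampling noise. Among genes with 2000 to 10000 counts, the variance between libraries was 1.95 times the mean count in the *xbp1* double mutant and 2.24 times in the *atf6* double mutant, where a coefficient of variation of 10% between preparations would give 36.5 and 36.9 times. The libraries of each genotype were therefore counted as 1 sample, no p-value is given for a difference between the genotypes, and the spread between libraries measures technical precision only. A gene was called past 2-fold where the log2 ratio of the group means (with a prior count of 2) was beyond 1 in size and the 3 libraries of one genotype all lay on one side of the 3 of the other. The *xbp1* double mutant libraries held 10806061 to 10811308 counts each and the *atf6* double mutant libraries 9608400 to 9611212.

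In outline, 1948 genes were past 2-fold higher in the *xbp1* double mutant (9.49% of the 20526) and 1016 were lower (4.95%). The higher genes included 6 of 24 ER chaperones (25%, near the 23% of genes with at least 10 CPM) and the protein disulfide isomerases *pdia4* and *pdia6*. The list of disulfide isomerases and oxidases split, with 3 of 16 higher and 4 lower, *p4hb* and *prdx4* among the lower. Translocon genes, *sec61a1a* foremost, and pancreatic digestive enzymes were also among the lower genes. The median log2 ratio over all genes was −0.02, and log2 levels correlated across genes with Pearson's r = 0.894 (genes are not independent replicates). Of the 4204 genes with at least 10 CPM, 966 were higher (23%) and 323 lower (7.68%), with a median log2 ratio of 0.27. Every count of list members below is to be read beside these shares and those of all genes. List shares count every member with at least 1 CPM, a lower floor than that of the 23% and 7.68%. Shares of list members with at least 10 CPM were not taken. The set at 10 CPM also rests on the scaling. With library totals alone it held 8156 genes, 1349 higher and 498 lower. With TMM factors from the genes above 10 CPM it held 7217, with 898 higher and 739 lower. Changes past 16-fold were seen in 23 genes that were higher and 33 that were lower. edgeR's quasi-likelihood test, which compares these libraries and not the genotypes, called 1957 genes higher (6.36% of 30792) and 945 lower (3.07%), and it shared 2697 of the 2964 genes past 2-fold.

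**Figure D1:**
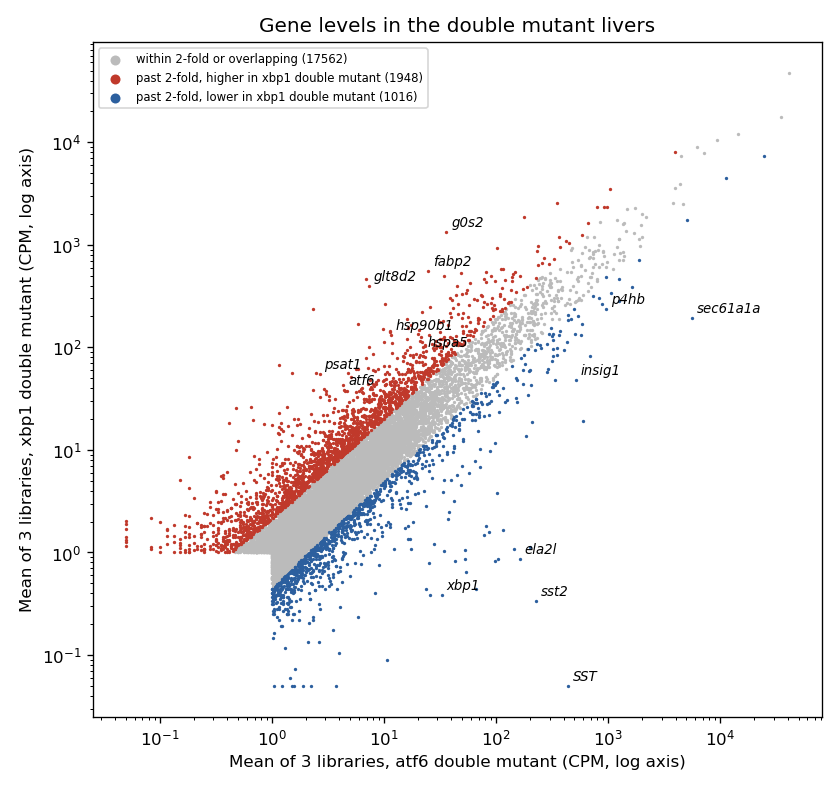
Mean level of each of the 20526 genes in the *xbp1* double mutant (vertical axis, CPM, log scale) against the *atf6* double mutant (horizontal axis, CPM, log scale), with means of 3 libraries; the lowest levels are drawn at the floor of the axes. Red points are the 1948 genes past 2-fold higher and blue points the 1016 lower in the *xbp1* double mutant; *SST* and *sec61a1a* lie far below the diagonal, and *glt8d2* and *g0s2* far above it.

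Scaling changed the balance of the calls. When the TMM factors came from the genes above 10 CPM alone, the log2 ratios of all genes moved by a median of −0.23 (in log2), and 1522 genes were higher (40.2% of the calls) and 2264 lower, against 65.7% higher with the scaling used throughout. No gene was called in opposite directions by these 2 scalings, but a move of that size is too small to turn a call, so this shows little. Counts of a list under that second scaling are given below as the high-level scaling where they differ by more than 1.5 times, or where they end a call that is described. Genes picked only as further list members or as neighbours of the deleted loci were not followed singly under it. Their calls at ratios near 1 may not hold there. TMM factors were 2.08 to 2.09 in both double mutants, 1.56 to 1.58 in the libraries labelled *atf4a/b* DKO, 0.761 to 0.762 in *sec31a* nju221 and 0.484 to 0.488 in WT, so levels in the other genotypes rest on the scaling far more than the comparison of the double mutants does.

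The disrupted genes matched their labels. *xbp1* (ENSDARG00000035622) had 0.31, 0.31 and 0.53 CPM in the *xbp1* double mutant libraries, against 33.6, 31.6 and 33.2 CPM in the *atf6* double mutant libraries. *atf6* (ENSDARG00000012656) had 35.6, 37.5 and 41.5 CPM in the *xbp1* double mutant and 4.09, 4.04 and 5.04 CPM in the *atf6* double mutant. Each transcript was thus low in the libraries of its own mutant, with no overlap, and neither double mutant reached the level in *sec31a* nju221 alone, which was 104 CPM for *xbp1* and 328 CPM for *atf6*. By library totals *xbp1* had 68.4 CPM in the *atf6* double mutant and 79 CPM in *sec31a* nju221, so the size of that gap rested on the scaling. *atf6* then had 79.6 CPM in the *xbp1* double mutant and 249 CPM in *sec31a* nju221. *sec31a* (ENSDARG00000021082) had 3.51, 3.32 and 3.55 CPM in the *xbp1* and 3.6, 3.09 and 2.75 CPM in the *atf6* double mutant, against 19.5 CPM in WT. By library totals *sec31a* had 7.22 CPM in the *xbp1* and 6.56 CPM in the *atf6* double mutant, against 9.44 CPM in WT. The size of the gap to WT thus rested on the scaling. The paralog *sec31b* (ENSDARG00000002916) had 3.25, 2.92 and 2.75 CPM in the *xbp1* and 2.2, 3.24 and 2.55 CPM in the *atf6* double mutant. The libraries overlapped for both *sec31* genes, so the shared background was alike in the transcript of the trapped gene.

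Hepatocyte markers stayed within 2-fold between the genotypes, though most were somewhat lower in the *xbp1* double mutant. None of the 10 listed markers was past 2-fold (1 was lower under the high-level scaling), their summed level was 7850 to 7980 CPM in the *xbp1* and 9160 to 9310 CPM in the *atf6* double mutant libraries, and their median log2 ratio was −0.08. *fabp10a*, the liver fatty acid binding protein, had 1310, 1290 and 1310 CPM in the *xbp1* double mutant and 1700, 1710 and 1700 CPM in the *atf6* double mutant. *tfa*, the iron carrier transferrin, had 2010, 1960 and 1990 CPM in the *xbp1* and 2010, 2010 and 2010 CPM in the *atf6* double mutant, a log2 ratio of −0.02. *ambp* and *cp* had the lowest log2 ratios, −0.98 and −0.66, and 3 of the 10 markers had ratios above 0. Of the 8 endothelial markers none was past 2-fold (1 lower under the high-level scaling), and of the 6 macrophage markers *marco* and *c1qa* were higher and *mpeg1.1* lower in the *xbp1* double mutant.

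The pancreas markers differed most of all. Of 15 measured digestive enzymes and other exocrine pancreas markers, 14 were past 2-fold lower in the *xbp1* double mutant and none was higher, with a median log2 ratio of −4.18. Their summed level was 27.8 to 30.5 CPM in the *xbp1* double mutant libraries and 959 to 978 CPM in the *atf6* double mutant libraries. All 5 measured endocrine pancreas markers were also lower, with a summed level of 3.59 to 3.99 CPM in the *xbp1* and 275 to 283 CPM in the *atf6* double mutant. This sum leaves out *SST*, described below, which alone averaged 440 CPM in the *atf6* double mutant. The summed endocrine level in the other 5 genotypes lay between 2.47 and 6.26 CPM, so the *atf6* double mutant libraries stood apart from the whole study in these markers. For the exocrine markers it was 55.6 CPM in the libraries labelled *atf4a/b* DKO, 792 and 53.2 CPM in the double mutants of *srebf1* and *srebf2*, 113 CPM in *sec31a* nju221 and 1990 CPM in WT. The order of the *atf6* double mutant and WT turned with the scaling, since by library totals the exocrine markers had 2020 CPM in the *atf6* double mutant and 967 CPM in WT.

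Single pancreas genes made up most of the largest falls. *SST*, which encodes the islet hormone somatostatin, had 0, 1 and 2 counts in the *xbp1* double mutant libraries and 8932, 8807 and 8737 counts in the *atf6* double mutant libraries. Its level in the *atf6* double mutant was 9930 times that in the *xbp1* double mutant, with a 95% counting interval of 3400 to 48100 (exact binomial, counting error only). *sst2*, a second somatostatin gene, had 0.31, 0.44 and 0.27 CPM in the *xbp1* double mutant and 229, 225 and 221 CPM in the *atf6* double mutant. Both hormone genes were near the limit of detection in every *xbp1* double mutant library. *gcga*, the glucagon gene, averaged 0.83 CPM in the *xbp1* and 42.7 CPM in the *atf6* double mutant, and *ins*, insulin, 1.35 CPM in the *xbp1* and 3.48 CPM in the *atf6* double mutant. Of the exocrine genes, the elastase gene *ela2l* had 0.89, 1.2 and 0.53 CPM in the *xbp1* double mutant, against 166, 161 and 159 CPM in the *atf6* double mutant. The trypsin gene *prss1* had 1.6, 1.55 and 1.77 CPM in the *xbp1* double mutant and 111, 118 and 116 CPM in the *atf6* double mutant. The trypsins *prss59.1* and *prss59.2*, the elastase *ela3l*, the chymotrypsinogen *ctrb.3* and *SYCN*, syncollin of the zymogen granule, complete the exocrine genes among the 12 largest falls, with log2 ratios of −7.31 to −6.11. In bulk RNA, fewer cells of a type and less RNA per cell cannot be told apart, and carry-over of pancreas with the dissected livers was not tested.

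**Figure D2:**
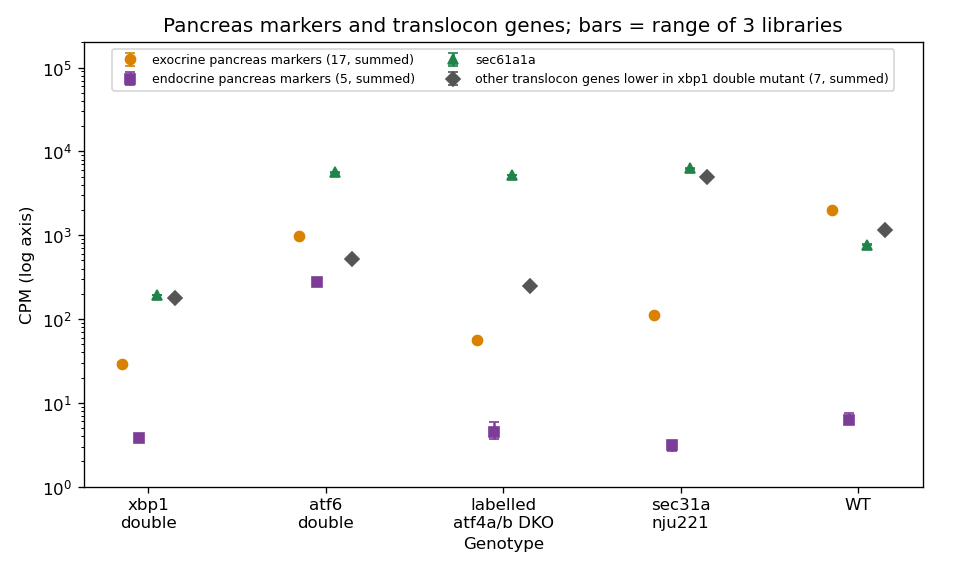
Summed level of 17 exocrine and 5 endocrine pancreas markers (*SST* not among them), the level of *sec61a1a* and the summed level of the 7 other translocon genes that were past 2-fold lower in the *xbp1* double mutant (vertical axis, CPM, log scale) in 5 genotypes; points are means of 3 libraries and bars their range. The *atf6* double mutant has 968 CPM of exocrine markers against 28.8 CPM in the *xbp1* double mutant, and *sec61a1a* has 5630 CPM against 195 CPM.

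The sensors and factors of the unfolded protein response themselves differed in few members. Of 28 measured, 4 were past 2-fold higher in the *xbp1* double mutant and 2 lower, and the median log2 ratio was 0.20. Under the high-level scaling 4 were higher and 4 lower, with a median of −0.04. The 4 higher genes included *atf6* itself, and the lower pair included *xbp1* itself. The other higher genes were *creb3l3a*, a liver-enriched relative of Atf6 that is cut in the same way, *ddit3*, which encodes the Atf4-induced death factor Chop, and *atf5b*, another target and relative of Atf4. *creb3l3a* had 14.8, 14.6 and 14.1 CPM in the *xbp1* and 3.1, 2.64 and 3.0 CPM in the *atf6* double mutant. *ddit3* had 23.5, 20.3 and 20 CPM in the *xbp1* double mutant against 7.79, 6.38 and 7.79 CPM in the *atf6* double mutant. Both were well apart, though each stayed below *sec31a* nju221 alone, where *creb3l3a* had 80.8 CPM and *ddit3* 139 CPM. *creb3l2*, a further member of that membrane-bound family, was the other lower gene, with 5.16, 4.03 and 4.04 CPM in the *xbp1* and 9.69, 9.57 and 11.8 CPM in the *atf6* double mutant.

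The upstream sensors stayed within 2-fold. *ern1*, which encodes Ire1, had 12.8, 15.2 and 11.1 CPM in the *xbp1* double mutant and 8.84, 10.4 and 10.8 CPM in the *atf6* double mutant. *eif2ak3*, which encodes Perk, had 5.02, 6.03 and 5.99 CPM in the *xbp1* double mutant against 8.64, 6.83 and 7.44 CPM in the *atf6* double mutant. The protease genes *mbtps1* and *mbtps2* had log2 ratios of −0.08 and −0.23. *atf4b* had 36.8, 37.2 and 40.5 CPM in the *xbp1* and 25.1, 23.6 and 26.5 CPM in the *atf6* double mutant, a log2 ratio of 0.60, and *atf3*, an Atf4 target, one of 0.62. *ppp1r15a*, the Gadd34 phosphatase subunit that ends the Perk signal, had a ratio of 0.26. Of the subunits of NF-Y, the partner that Atf6 and Xbp1 bind beside on ER stress elements, *nfyc* had the lowest ratio, −0.77, and *nfyba* the highest, 0.40.

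Ire1 also cuts other mRNAs at the ER membrane, and a list of 8 such substrates known from mammals was all measured. None was past 2-fold higher and *col6a1*, a collagen gene, was lower, with 7.38, 7.31 and 7.23 CPM in the *xbp1* and 18.9, 18.8 and 19.1 CPM in the *atf6* double mutant. The median log2 ratio of the list was 0.36, and *bloc1s1*, a much used reporter of this decay, had a ratio of 0.46.

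ER chaperones were higher in the *xbp1* double mutant in 6 of 24 measured members and lower in 1 (25% and 4.17%). The shares were 9.49% and 4.95% of all genes and 23% and 7.68% of genes with at least 10 CPM. With this scaling the count was thus near that of the well-expressed genes. By library totals 6 of 25 chaperones were higher, beside 1349 of the 8156 genes then at 10 CPM or more. The median log2 ratio was 0.39, against −0.02 over all genes and 0.27 over those with at least 10 CPM. *hsp90b1*, the ER member of the Hsp90 family, had 126, 134 and 133 CPM in the *xbp1* double mutant and 12.4, 10.4 and 11.6 CPM in the *atf6* double mutant. *hspa5*, which encodes the main ER chaperone BiP, had 88.1, 92.4 and 92.1 CPM in the *xbp1* double mutant against 22.0, 23.0 and 21.9 CPM in the *atf6* double mutant. *manf*, a secreted ER stress protein that binds BiP, had 222, 211 and 213 CPM in the *xbp1* and 53.6, 49.9 and 48.2 CPM in the *atf6* double mutant. The libraries of these 3 genes were far apart, at log2 ratios of 3.50, 2.02 and 2.09. *calr*, the lectin chaperone calreticulin, and *sdf2* followed with ratios of 1.55 and 1.24, and *creld1b*, at 1.02, was near the threshold. The lower chaperone gene was *dnajb9b*, a BiP co-chaperone that in mammals is a standard Xbp1 target, with 0.58, 0.80 and 0.44 CPM in the *xbp1* and 3.05, 1.1 and 1.25 CPM in the *atf6* double mutant. That call was at low levels and leaned on library 1 of the *atf6* double mutant. Whether it holds without that library was not looked at.

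The levels of chaperone genes in the other genotypes varied around these. *hspa5* had 5.71 CPM in the libraries labelled *atf4a/b* DKO, 100 CPM in *sec31a* nju221 and 38.9 CPM in WT. The *xbp1* double mutant was above WT, while the place of the *atf6* double mutant turned with the scaling, with 46.5 CPM by library totals against 18.9 CPM in WT. *hsp90b1* had 8.79, 57.4 and 71.6 CPM in the same order. The libraries labelled *atf4a/b* DKO thus had about as few *hsp90b1* reads as the *atf6* double mutant. Their label was not borne out by the transcripts, since *atf4a* and *atf4b* had 12.6 and 132 CPM there and 6.41 and 88.4 CPM in *sec31a* nju221.

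The disulfide isomerases and oxidases, which form and rearrange disulfide bonds in new proteins, split in both directions. Of 16 measured, 3 were higher in the *xbp1* double mutant and 4 lower (3 and 6 of 18 under the high-level scaling). The isomerases *pdia6* and *pdia4* had 57.3, 58.4 and 61.4 CPM and 36.1, 36.2 and 36.7 CPM in the *xbp1* double mutant, against 8.54, 8.32 and 8.24 CPM and 6.99, 6.28 and 5.94 CPM in the *atf6* double mutant. *tmx2b*, a membrane-bound thioredoxin-related gene, was the third, at a log2 ratio of 1.27. The founding isomerase gene *p4hb* went the other way, with 242, 231 and 233 CPM in the *xbp1* double mutant and 958, 951 and 963 CPM in the *atf6* double mutant. *prdx4*, the ER peroxiredoxin, had 3.65, 4.39 and 3.73 CPM in the *xbp1* double mutant against 34.2, 31.2 and 34.5 CPM in the *atf6* double mutant. *pdia5* and the sulfhydryl oxidase *qsox1* were lower by 1.1 and 1.06 on the log2 scale. In the other genotypes *p4hb* was at 1510 CPM in the libraries labelled *atf4a/b* DKO, 3740 CPM in *sec31a* nju221 and 657 CPM in WT. The order of the *xbp1* double mutant and WT turned with the scaling, since by library totals *p4hb* had 491 and 319 CPM there.

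ER-associated degradation, the route by which misfolded proteins are drawn back to the cytosol and destroyed, had 9 of 32 members higher in the *xbp1* double mutant and 1 lower (28.1% and 3.12%), with a median log2 ratio of 0.33. The share of higher members was above the 9.49% of all genes but near the 23% of genes with at least 10 CPM, a higher floor than that of the list. *vcp*, the ATPase that pulls proteins from the membrane, had 30.0, 28.4 and 25.8 CPM in the *xbp1* and 9.49, 8.52 and 9.09 CPM in the *atf6* double mutant. *herpud1*, a scaffold of the ubiquitin ligase, had 32.4, 38.0 and 35.2 CPM in the *xbp1* double mutant against 12.7, 12.3 and 12.9 CPM in the *atf6* double mutant. The ligase adaptor *sel1l*, the glycoprotein folding sensor *uggt1*, the Derlin gene *derl3* and the ubiquitin-conjugating enzyme genes *ube2j1* and *ube2j2* were among the others, at ratios of 1.12 to 1.22. *edem1*, which hands glycoproteins over for degradation and in mammals is an Xbp1 target, was the lower one, with a mean of 9.9 CPM in the *xbp1* and 20.7 CPM in the *atf6* double mutant. *edem1* did not pass without library 3 of either genotype, at −0.94 in both cases. Under the high-level scaling the degradation list had 3 higher and 3 lower, with *derl3* at 0.99 and *uggt1* at 0.91, and the chaperone list 4 higher and 3 lower.

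**Figure D3:**
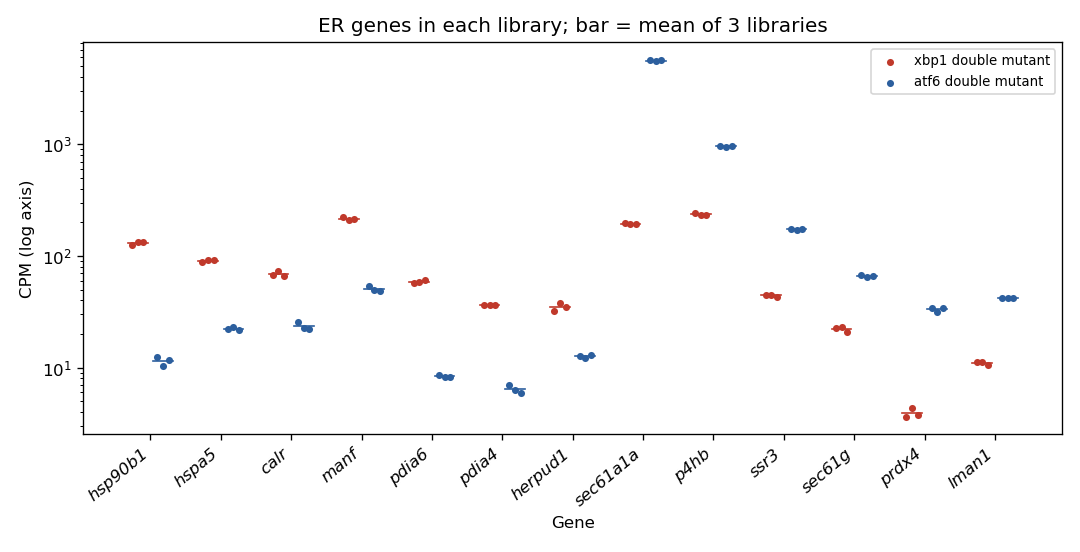
Level of 13 ER genes in each of the 6 libraries (vertical axis, CPM, log scale), with the *xbp1* double mutant left of the *atf6* double mutant for each gene; points are libraries and bars the mean of 3. The 7 genes on the left, from *hsp90b1* to *herpud1*, are higher in the *xbp1* double mutant and the 6 on the right, from *sec61a1a* to *lman1*, are lower, and in none do the libraries overlap.

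Translocon and signal peptidase genes, which thread new secretory proteins into the ER and trim them, were lower in the *xbp1* double mutant in 8 of 24 members and higher in none. The lower share was 33.3%, beside 4.95% of all genes and 7.68% of genes with at least 10 CPM. The median log2 ratio of the list was −0.31. *sec61a1a*, a gene for the channel subunit Sec61 alpha, had 196, 195 and 192 CPM in the *xbp1* double mutant, against 5660, 5570 and 5650 CPM in the *atf6* double mutant, a log2 ratio of −4.85. This was the largest difference of the list. Its paralog *sec61a1b* had 57.3, 56.2 and 55.9 CPM in the *xbp1* and 67.5, 61.9 and 68.9 CPM in the *atf6* double mutant, so the difference did not extend to both alpha genes. The translocon-associated genes *ssr3* and *ssr2* had 44.9, 45.1 and 43.0 CPM and 22.0, 20.3 and 22.2 CPM in the *xbp1* double mutant, against 176, 171 and 176 CPM and 80.8, 73.7 and 79.2 CPM in the *atf6* double mutant. *sec61b* and *sec61g*, the small channel subunits, *srprb*, a subunit of the signal recognition particle receptor, and *tram1* were lower by 1.06 to 1.55 on the log2 scale, and *ssr1* was lower at low levels, with means of 0.22 CPM in the *xbp1* and 1.75 CPM in the *atf6* double mutant. *tram2* and the signal recognition particle genes *srp9* and *srp19* had the highest ratios, 0.90, 0.77 and 0.63, none past 2-fold.

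Pancreas markers moved with the translocon genes between the double mutants, and their part in this difference was not tested. *sec61a1a* had 5230 CPM in the libraries labelled *atf4a/b* DKO and 6280 CPM in *sec31a* nju221, genotypes with 55.6 and 113 CPM of exocrine markers, and 767 CPM in WT with 1990 CPM of these markers. By library totals *sec61a1a* had 406 CPM in the *xbp1* and 11700 CPM in the *atf6* double mutant, 8210 CPM in the libraries labelled *atf4a/b* DKO, 4780 CPM in *sec31a* nju221 and 372 CPM in WT. In the double mutants of *srebf1* and *srebf2*, with 792 and 53.2 CPM of exocrine markers, *sec61a1a* had 4620 and 4630 CPM with the TMM scaling. Together the 7 other lower translocon genes had 178 CPM in *xbp1* double mutants and 522 CPM in *atf6* double mutants, beside 247 CPM in the libraries labelled *atf4a/b* DKO, 8020 and 3990 CPM in the double mutants of *srebf1* and *srebf2*, 4890 CPM in *sec31a* nju221 and 1140 CPM in WT. By library totals these 7 genes had 371 CPM in the *xbp1* and 1090 CPM in the *atf6* double mutant. They then had 387 CPM in the libraries labelled *atf4a/b* DKO, 3720 CPM in *sec31a* nju221 and 555 CPM in WT. The order of the *atf6* double mutant and WT thus turned with the scaling.

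The next steps of the secretory pathway had members at both ends. None of the 13 measured N-glycosylation genes was higher in the *xbp1* double mutant, and *krtcap2*, a subunit of the oligosaccharyltransferase that attaches sugar chains, was lower, with 8.13, 9.53 and 9.63 CPM in the *xbp1* double mutant against 23.0, 26.2 and 26.2 CPM in the *atf6* double mutant. Under the high-level scaling 2 genes of that list were lower. Of 16 COPII genes *sar1b* alone was past 2-fold, with 46.3, 45.3 and 46.1 CPM in the *xbp1* and 22.2, 20.4 and 23.3 CPM in the *atf6* double mutant. *sar1b* encodes the GTPase that starts the COPII coat, and its log2 ratio of 1.06 was 0.82 under the high-level scaling, which ends the call. COPI genes, whose coat returns vesicles from the Golgi, had the highest median of all pathway lists, 0.81, with 2 of 9 higher and none lower. The higher share was 22.2%, near the 23% of genes with at least 10 CPM. *copb2* had 44.8, 44.7 and 43.3 CPM in the *xbp1* and 5.99, 7.88 and 7.89 CPM in the *atf6* double mutant, and *copz1* 318, 310 and 313 CPM in the *xbp1* against 107, 110 and 109 CPM in the *atf6* double mutant.

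Among 29 SNAREs and cargo receptors, 4 were higher in the *xbp1* double mutant and 4 lower. *sec22ba*, a SNARE of ER to Golgi transport, had 151, 150 and 153 CPM in the *xbp1* and 9.94, 9.22 and 10.1 CPM in the *atf6* double mutant. *sec22bb*, its paralog, went the other way at low levels, with a log2 ratio of −1.05. *gosr2*, a Golgi SNARE, had 14.9, 17.0 and 17.3 CPM in the *xbp1* double mutant against 4.94, 5.58 and 5.59 CPM in the *atf6* double mutant. *lman1*, a cargo receptor for glycoproteins such as coagulation factors, and *ergic1*, of the compartment between ER and Golgi, had 11.3, 11.2 and 10.6 CPM and 5.56, 5.89 and 3.9 CPM in the *xbp1* double mutant, against 42.1, 41.6 and 41.6 CPM and 37.1, 31.8 and 33.2 CPM in the *atf6* double mutant. The Golgi GTPase genes *arf4b* and *arf4a*, members of no list, were also far apart. *arf4b* had 56.0, 57.2 and 57.1 CPM in the *xbp1* and 1.4, 1.55 and 1.6 CPM in the *atf6* double mutant, and *arf4a* 148, 147 and 139 CPM in the *xbp1* and 10.7, 12.5 and 11 CPM in the *atf6* double mutant. In *sec31a* nju221 alone, *sec22ba* had 4850 CPM, *arf4b* 871 CPM and *arf4a* 6160 CPM.

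Genes known as Atf4 targets were higher in the *xbp1* double mutant in 10 of 34 members and lower in 1 (29.4% and 2.94%, beside 9.49% and 4.95% of all genes and 23% and 7.68% of those with at least 10 CPM), with a median log2 ratio of 0.53. *psat1*, an enzyme of serine synthesis, had 56.4, 53.5 and 56.6 CPM in the *xbp1* and 2.45, 2.44 and 3.1 CPM in the *atf6* double mutant. Aminoacyl-tRNA synthetases were represented by *sars1*, *nars1*, *tars1*, *wars1* and *iars1*. *sars1* had 67.8, 65.6 and 65.0 CPM in the *xbp1* double mutant against 10.8, 11.1 and 11.6 CPM in the *atf6* double mutant. *cth*, which makes cysteine, had 265, 263 and 258 CPM in the *xbp1* and 82.5, 87.2 and 78.8 CPM in the *atf6* double mutant. *asns*, asparagine synthetase, *psph*, the last enzyme of serine synthesis, and the growth factor gene *vegfaa* were the rest, at ratios of 1.14 to 1.62. *cebpb*, a liver transcription factor, was the lower one, with 30.6, 33.2 and 30.9 CPM in the *xbp1* and 63.5, 66.4 and 67.9 CPM in the *atf6* double mutant. Under the high-level scaling 7 of 35 Atf4 targets were higher and 1 lower, with a median of 0.25.

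**Figure D4:**
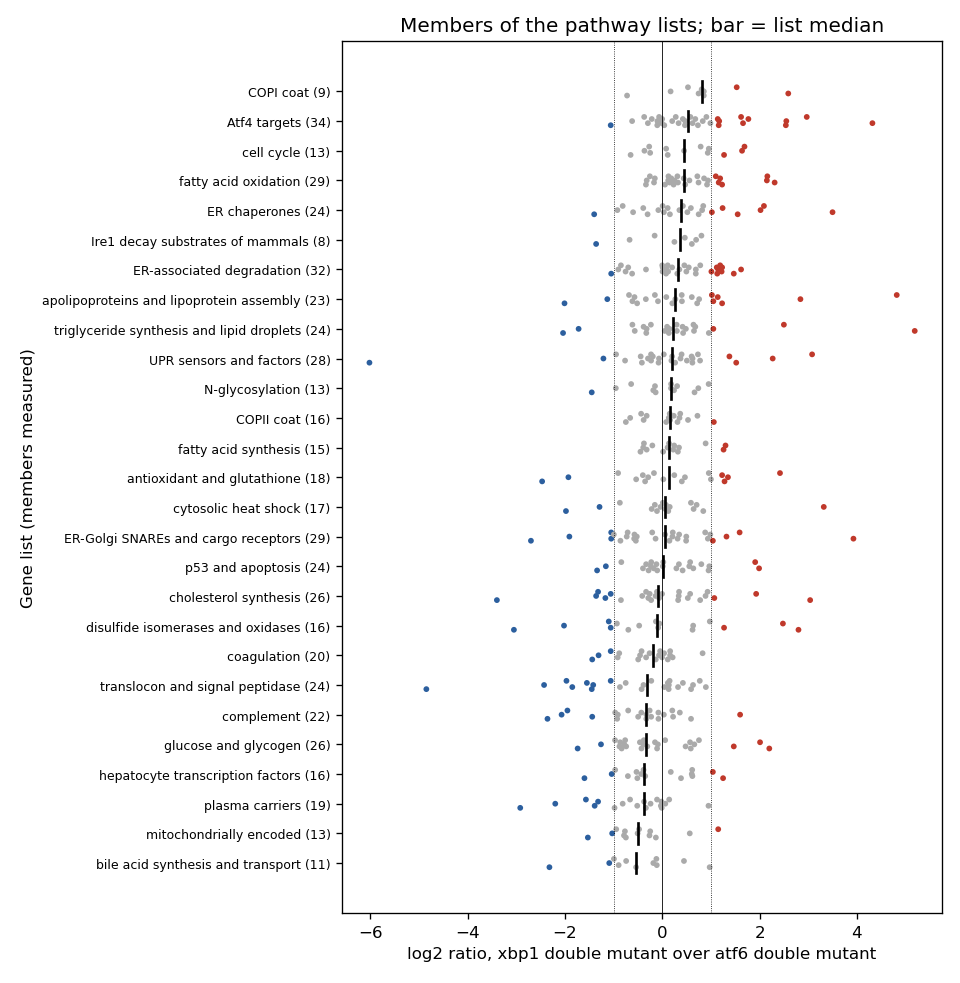
Log2 ratio of each measured member of the pathway lists, *xbp1* over *atf6* double mutant (horizontal axis), with 1 row per list ordered by its median (black bar); red points are above 1, blue points below −1 and dotted lines mark the 2-fold limits. COPI coat genes have the highest median (0.81) and bile acid genes the lowest (−0.54) with the scaling drawn, and most lists hold members on both sides of 0.

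Cholesterol synthesis genes had 3 of 26 members higher in the *xbp1* double mutant and 5 lower (11.5% and 19.2%). The shares were 9.49% and 4.95% of all genes and 23% and 7.68% of those with at least 10 CPM. *hmgcra*, the rate-limiting reductase, had 31.5, 30.3 and 32.3 CPM in the *xbp1* double mutant and 4.29, 3.09 and 3.69 CPM in the *atf6* double mutant. *insig1*, the ER protein that holds the Srebp factors back and marks the reductase for degradation, had 49.5, 45.9 and 49.4 CPM in the *xbp1* double mutant against 509, 513 and 516 CPM in the *atf6* double mutant. The reductase and the protein that restrains it thus lay far apart in opposite directions, at log2 ratios of 3.04 and −3.40. *ldlra*, the LDL receptor, and *dhcr7*, the last enzyme of the pathway, were lower by 1.36 and 1.17 on the log2 scale. *insig1* had 705 CPM in the libraries labelled *atf4a/b* DKO, 71.3 CPM in *sec31a* nju221 and 242 CPM in WT.

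Of the genes of triglyceride storage, 3 of 24 were higher in the *xbp1* double mutant and 2 lower. *g0s2*, which encodes an inhibitor of the lipase that empties lipid droplets, had 1330, 1320 and 1310 CPM in the *xbp1* and 36.6, 34.8 and 36.8 CPM in the *atf6* double mutant. *plin3*, a droplet coat gene, had a log2 ratio of 2.50. The phosphatidate phosphatase genes *lpin1a* and *lpin2* were lower, with 87.8, 81.7 and 84.8 CPM and 59.4, 59.5 and 62.1 CPM in the *xbp1* double mutant, against 353, 346 and 349 CPM and 202, 196 and 202 CPM in the *atf6* double mutant. For *g0s2*, WT had 1370 CPM and *sec31a* nju221 5400 CPM, and the libraries labelled *atf4a/b* DKO 34.3 CPM. By library totals *g0s2* had 2760 CPM in the *xbp1* and 75.2 CPM in the *atf6* double mutant, against 667 CPM in WT, so the *atf6* double mutant was below WT under both scalings and the *xbp1* double mutant was above WT only by library totals. The fatty acid synthesis list had 2 of 15 higher, *elovl1b* and *acacb*, and none lower.

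Fatty acid oxidation genes were higher in the *xbp1* double mutant in 7 of 29 members and lower in none (24.1% higher), with a median log2 ratio of 0.44. That share was above the 9.49% of all genes but near the 23% of genes with at least 10 CPM. *hadhab*, a gene for the alpha subunit of the mitochondrial trifunctional protein, had 36.8, 31.6 and 32.7 CPM in the *xbp1* double mutant and 7.39, 7.33 and 7.54 CPM in the *atf6* double mutant. *hadh*, the short-chain dehydrogenase, had 31.2, 29.7 and 32.7 CPM in the *xbp1* and 7.64, 6.83 and 6.34 CPM in the *atf6* double mutant. *cpt2*, *cpt1ab*, *acaa2*, *hadhb* and *hadhaa* made up the 7, at ratios of 1.1 to 2.31. Under the high-level scaling 3 were past 2-fold higher and none lower, and *cpt1ab* was at 0.99.

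Apolipoproteins and lipoprotein assembly genes had 6 of 23 members higher and 2 lower (26.1% and 8.7%), and 2 and 2 under the high-level scaling. The first shares were near the 23% and 7.68% of genes with at least 10 CPM. *apoeb*, apolipoprotein E, had 167, 170 and 171 CPM in the *xbp1* and 6.04, 5.98 and 5.59 CPM in the *atf6* double mutant. *apoc2*, the cofactor of lipoprotein lipase, had 8130, 8110 and 8120 CPM in the *xbp1* double mutant against 3940, 3910 and 3930 CPM in the *atf6* double mutant, a log2 ratio of 1.05 that was 0.81 under that scaling. *pltp*, the phospholipid transfer protein, and *apoa1a* were lower by 2.01 and 1.13 on the log2 scale. The fatty acid binding protein genes *fabp7a* and *fabp2* stood with *apoeb* among the 12 largest rises. *fabp2* had 555, 559 and 561 CPM in the *xbp1* and 26, 23.9 and 23.9 CPM in the *atf6* double mutant, while the other 8 measured intestine markers were within 2-fold, at ratios of −0.91 to 0.05.

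Secreted plasma proteins that were past 2-fold were mostly lower in the *xbp1* double mutant. Plasma carriers had 5 of 19 lower and none higher, coagulation 3 of 20 lower and none higher, and complement 4 of 22 lower and 1 higher, with medians of −0.37, −0.20 and −0.33. The lower shares were 26.3%, 15% and 18.2%, beside 4.95% of all genes and 7.68% of genes with at least 10 CPM. Under the high-level scaling 5 coagulation genes were lower, and 7 complement genes were lower and 1 higher. *rbp4*, the retinol carrier, had 4570, 4490 and 4490 CPM in the *xbp1* and 11200, 11200 and 11300 CPM in the *atf6* double mutant. *ttr*, the thyroid hormone carrier transthyretin, had 210, 199 and 203 CPM in the *xbp1* double mutant against 532, 529 and 547 CPM in the *atf6* double mutant. *ahsg2*, a fetuin gene, had 5.29, 4.12 and 5.86 CPM in the *xbp1* and 38.3, 41.7 and 37.8 CPM in the *atf6* double mutant. Among complement genes, *c9* of the membrane attack complex had 396, 382 and 394 CPM in the *xbp1* double mutant and 1640, 1610 and 1660 CPM in the *atf6* double mutant, and *c5* and *masp1* were lower by 1.44 and 1.95 on the log2 scale. *cfh*, a complement inhibitor, was the exception, with 337, 330 and 329 CPM in the *xbp1* and 112, 110 and 106 CPM in the *atf6* double mutant. Of the coagulation genes, *vtna*, *plg* and *pros1* were lower by 1.31, 1.06 and 1.44 on the log2 scale.

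Bile acid genes had a median of −0.54, with 2 of 11 lower and none higher (4 of 12 lower under the high-level scaling). *cyp7a1*, the rate-limiting enzyme of bile acid synthesis, had 60.5, 57.2 and 54.8 CPM in the *xbp1* and 292, 288 and 283 CPM in the *atf6* double mutant. *abcb11b*, a bile salt export pump gene, had 213, 203 and 202 CPM in the *xbp1* double mutant against 440, 429 and 443 CPM in the *atf6* double mutant. In glucose metabolism, the glycogen primer gene *gyg1a* had 741, 747 and 739 CPM in the *xbp1* and 274, 267 and 263 CPM in the *atf6* double mutant, and *pgm1* and *ppp1r3b*, which serve glycogen synthesis, had ratios of 2.01 and 2.20. In all 3 glucose genes were higher and 2 lower of 26, and 3 and 8 under the high-level scaling. Of the liver transcription factors, *foxa3* and *nr1h3* were higher at ratios of 1.25 and 1.04, and *foxa1* was lower at −1.04. In all 2 of 16 were higher and 2 lower, and under the high-level scaling 1 and 3, with *nr1h3* at 0.80. *foxa1* did not pass without library 2 or 3 of the *xbp1* double mutant or library 2 of the *atf6* double mutant, at −0.95, −0.94 and −0.93.

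Stress lists outside the ER held single genes with large differences. *hsp90aa1.2*, a cytosolic Hsp90 gene, was the 1 heat shock gene of 17 that was higher, with 223, 216 and 221 CPM in the *xbp1* and 21.6, 23.2 and 20.9 CPM in the *atf6* double mutant. *bag3*, a co-chaperone of Hsp70, and *hsf2*, a heat shock factor, were lower by 1.98 and 1.29 on the log2 scale. Of 18 antioxidant genes 5 were higher (27.8%, beside 23% of genes with at least 10 CPM), *prdx1* and *gstp1.2* among them at 2.42 and 1.35. In the same list 2 were lower (3 and 3 under the high-level scaling). The lower pair were *nfe2l2a*, which encodes the antioxidant regulator Nrf2, and *hmox1a*, heme oxygenase. *hmox1a* had 33.7, 33.9 and 36.3 CPM in the *xbp1* double mutant against 192, 191 and 194 CPM in the *atf6* double mutant. Of 13 cell cycle genes, *mki67*, *pcna* and *ccnb1* were higher at ratios of 1.69, 1.64 and 1.27 and none was lower (1 lower under the high-level scaling), while p53 and apoptosis genes had 2 higher and 2 lower of 24. Ribosomal protein genes, listed by symbol, had 3 of 77 higher and none lower (3 and 2 under the high-level scaling). The 3 were *rps29* and the ribosomal protein-like genes *rpl7l1* and *rps27l*. Of the 13 mitochondrially encoded genes *MT-CO1* had the lowest ratio, −1.53.

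Outside the lists, the largest rise was that of *glt8d2*, a glycosyltransferase gene, with 401, 402 and 394 CPM in the *xbp1* double mutant and 7.29, 6.83 and 7.79 CPM in the *atf6* double mutant. It had 12.6 CPM in the libraries labelled *atf4a/b* DKO, 9.69 CPM in *sec31a* nju221 and 13.1 CPM in WT. In the double mutants of *srebf1* and *srebf2* it had 43.5 and 14.1 CPM, so the *xbp1* double mutant was far above every other genotype. *ccdc117* was highest in the same genotype, with 26.5, 25.7 and 25.9 CPM in the *xbp1* double mutant against 1.1, 1.45 and 1.5 CPM in the *atf6* double mutant. Its next highest level was 5.82 CPM, in the double mutant of *srebf2*. *mdp1*, *isg15*, an interferon-induced ubiquitin-like gene, *snap23.2*, a SNARE gene, and *vdac1*, the mitochondrial outer membrane channel, complete the 12, with log2 ratios of 5.71, 4.6, 4.43 and 4.22. For all 12 the level in the libraries labelled *atf4a/b* DKO was nearer the *atf6* than the *xbp1* double mutant, and for 10 of the 12 the level in *sec31a* nju221 was nearer the *xbp1* double mutant. These counts were the same by library totals.

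Among the 12 largest falls, *rnasekb* and *COX6A1* were neither pancreas genes nor disrupted. *rnasekb*, a ribonuclease kappa gene, had 0.98, 0.93 and 1.38 CPM in the *xbp1* and 145, 143 and 151 CPM in the *atf6* double mutant. *COX6A1*, a subunit of cytochrome c oxidase, had 0.85, 0.93 and 0.84 CPM in the *xbp1* double mutant against 54.4, 50 and 53.5 CPM in the *atf6* double mutant. Both were also low in *sec31a* nju221, at 5.07 and 2.55 CPM, and high in WT, at 82.2 and 113 CPM. For 9 of the 12 falls the level in the libraries labelled *atf4a/b* DKO was nearer the *xbp1* than the *atf6* double mutant. These 9 were the pancreas genes. *rnasekb* and *COX6A1* had 258 and 69 CPM in those libraries, nearer the *atf6* double mutant. The level in *sec31a* nju221 was nearer the *xbp1* double mutant for 11 of the 12, and both counts were the same by library totals. Genes chosen after their values were seen include *dio1*, which activates thyroid hormone, with 0.80, 1.15 and 1.15 CPM in the *xbp1* and 36.6, 34.3 and 32.6 CPM in the *atf6* double mutant. *smad1*, a transducer of Bmp signals, and *bmp2k*, a kinase gene, were chosen in the same way and lay at log2 ratios of 3.53 and −3.75.

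**Figure D5:**
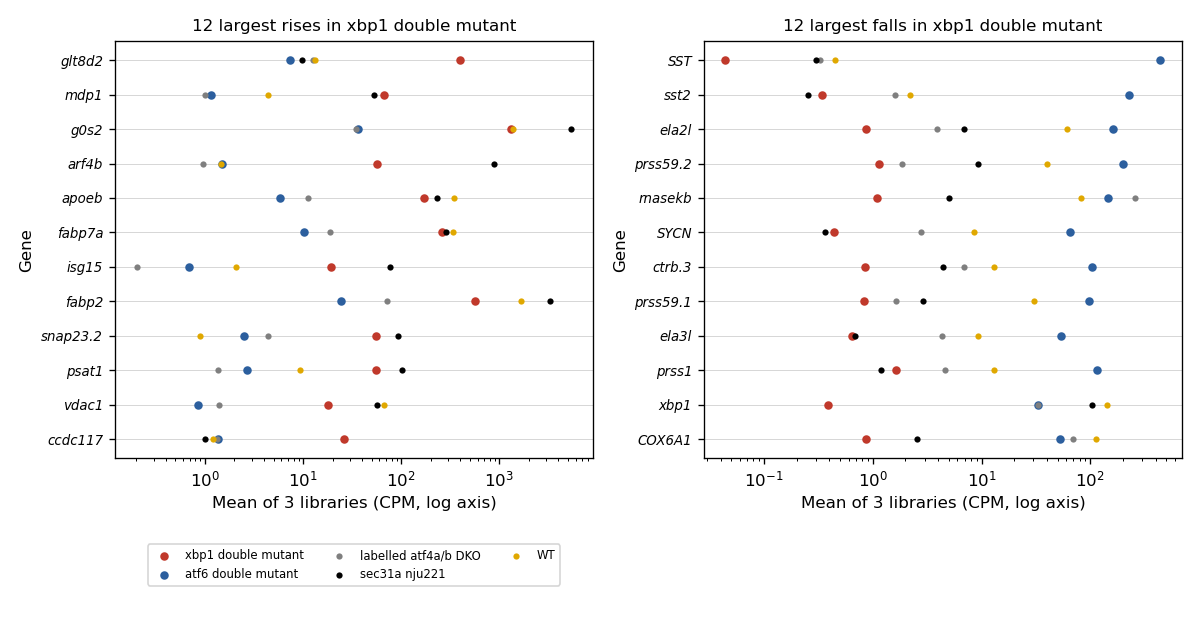
Mean level (horizontal axis, CPM, log scale, 3 libraries each) of the 12 genes with the largest rises (left) and the 12 with the largest falls (right) in the *xbp1* relative to the *atf6* double mutant, with the levels in the libraries labelled *atf4a/b* DKO, *sec31a* nju221 and WT. For the 12 rises the libraries labelled *atf4a/b* DKO lie nearer the *atf6* double mutant. For 9 of the 12 falls, all pancreas genes, they lie nearer the *xbp1* double mutant. Most of the 12 falls are pancreas genes.

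The genes next to the deleted loci were read for effects of linkage, in the gene order of the RefSeq GRCz12tu annotation. Of the 50 measured genes on each side of *xbp1*, 12 were past 2-fold higher and 1 lower (12% and 1%), beside 9.49% and 4.95% of all genes. Around *atf6* 7 were higher and 1 lower, and around *sec31a* 9 and 1. Within 5 genes of *xbp1*, *hspb8*, a small heat shock protein gene, had 78.4, 83.4 and 85.9 CPM in the *xbp1* and 14.4, 15.9 and 14.1 CPM in the *atf6* double mutant, and *coq5* had a log2 ratio of 1.04. Elsewhere *hspb8* had 20.4 CPM in the libraries labelled *atf4a/b* DKO, 89 CPM in *sec31a* nju221 and 97.9 CPM in WT. In the double mutants of *srebf1* and *srebf2* it had 51.2 and 81.2 CPM. *coq5* had 22.5 CPM in the libraries labelled *atf4a/b* DKO, 63.6 CPM in *sec31a* nju221 and 21.1 CPM in WT. Between the *xbp1* and *atf6* double mutants, place beside the deletion and genotype cannot be told apart for these 2 genes.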

How the data were processed

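Livers were dissected at 7 dpf and dissociated with trypsin, and libraries were made with a low-input kit and sequenced as paired 150-base reads. Per the labels and the study's methods, the authors mapped reads to GRCz11 with HISAT2 2.1.0 and counted them per Ensembl gene with featureCounts 1.6.0. The authors deposited raw counts of reads per gene, and the annotation release, strand setting and treatment of multiply mapped reads are not given in the sources used here. Reads of near-identical paralogs (the trypsins, elastases, *arf4a* and *arf4b*) and of overlapping genes may therefore be split or lost. No column of any file was left out.

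Counts were scaled by TMM over the 21 libraries (edgeR 4.0.16, R 4.3.3) and given as CPM. A name table gave symbols for 29201 of the 32520 IDs, and 4317 zebrafish paralog symbols were set from neighbours shared with the RefSeq GRCz12tu gene order. Genes were called by size (log2 ratio beyond 1, no overlap of libraries, at least 1 CPM in one genotype, prior count 2). Log2 ratios carry that prior count and understate the change of low genes. edgeR's quasi-likelihood test on all 21 libraries (fold above 2, Benjamini-Hochberg false discovery rate below 0.001, genes whose scaled counts reached a total of 10) was a second reading and compares libraries only, and DESeq2 1.42.0 was an alternative. The scripts were tested on simulated data. Intervals cover counting error only.

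The comparison, the gene lists and the tests were chosen with earlier results of these data known. Named genes were the disrupted genes and *sec31b*, the 12 largest rises and falls with at least 10 CPM and a symbol that is no clone name, every measured sensor and factor, and in each list the 3 largest rises and falls and the 2 highest with at least 10 CPM. Other members of the lists, the neighbours of the deleted loci and the *arf4a*, *dio1*, *smad1* and *bmp2k* genes were named after their values were seen. A planned search of promoters for binding motifs was not run, since no promoter sequence was used here. Alternatives are given in the closing section. Some members of the glucose and liver transcription factor lists are not reported here by name. Levels by library totals were added after the values were seen.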

Additional observations from a re-analysis of the deposited data

How the results depend on the processing

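Counts of genes past 2-fold stayed within 1.5 times of 1948 higher and 1016 lower with RLE size factors, TMM over the 6 libraries, library totals only, a prior count of 0.5, no minimum CPM (2414 and 1472) and thinned counts. With TMM factors from genes with at least 10 CPM 2264 genes were lower, with a prior count of 10 there were 653 lower, and with a minimum of 10 CPM 966 were higher and 323 lower. A fold threshold of 1.5 gave 3698 higher and 2622 lower, and one of 4 gave 418 and 169. Leaving out 1 library gave 2049 to 2103 higher and 954 to 986 lower. edgeR's quasi-likelihood calls (1957 higher, 945 lower) became 5012 and 3788 with any fold and a false discovery rate below 0.05. With the libraries of a genotype summed and an assumed coefficient of variation they were 662 and 289 (0.2) and 23 and 37 (0.4), so the number of calls rests on the spread assumed between preparations, which these libraries do not measure. Leaving out 1 library gave 1921 to 1975 and 799 to 825, and DESeq2 1800 and 897. Replicate numbers did not pair the libraries, since same-numbered libraries deviated together with correlations of 0.01, 0.06 and −0.02 (number 3 lay below its mean with the other numbers, 0.01), and with the replicate number as a block edgeR called 1944 higher and 931 lower. Of the 253 named genes, 139 were past 2-fold and none of these changed direction under the settings tried. A change of direction would have needed a move of more than 1 on the log2 scale. *edem1*, *tmed10*, *foxa1* and *MT-ND6* fell short of the threshold when single libraries were left out, at −0.928 to −0.997. Of the 41 lists, 32 kept the sign of their median under the 5 scalings. Those that did not include the sensors and factors (−0.04 to 0.20), COPII coat (−0.07 to 0.16), N-glycosylation (−0.06 to 0.18) and SNAREs and cargo receptors (−0.09 to 0.15). Depth limits genes near 1 CPM, about 20 counts per library.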

Other observations

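The libraries labelled *atf4a/b* DKO were set beside the genes past 2-fold after their values were seen. Their level was nearer the *atf6* than the *xbp1* double mutant on the log2 scale in 68.9% of the 1948 genes that were higher in the *xbp1* double mutant, against 55.7% of all 20526 genes. The share was 69.4% with RLE size factors, 72.3% with TMM factors from genes with at least 10 CPM and 81.7% with library totals only, against 55.2%, 50.2% and 50.8% of all genes. For the 1016 genes that were lower the share was 56.7%, and 38.8% with library totals only, so it lay on both sides of the share of all genes. Among genes with at least 10 CPM the level in the libraries labelled *atf4a/b* DKO was nearer the *atf6* double mutant in 678 of the 966 higher and 225 of the 323 lower genes. The shares of higher and lower genes were thus nearly equal there, and the gap between 68.9% and 56.7% was not seen in these genes. The share over all genes with at least 10 CPM was not taken, so these counts have no background to be read beside. For *sec31a* nju221 the level was nearer the *atf6* double mutant in 16% of the higher and 49.2% of the lower genes, against 38.9% of all genes. For WT the shares were 21.8% and 59.4%, against 41.6%. Among genes with at least 10 CPM they were 3.42% and 75.5% for *sec31a* nju221 and 9.21% and 86.7% for WT. These shares were taken with the TMM scaling alone, and how far they rest on it was not tested.

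Among other genes chosen after their values were seen, *cxcr4b*, a chemokine receptor gene, averaged 17.0 CPM in the *xbp1* and 1.38 CPM in the *atf6* double mutant. *ezra*, an ezrin gene of the cell cortex, averaged 492 CPM in the *xbp1* and 34.3 CPM in the *atf6* double mutant, and *sult6b1*, a sulfotransferase gene, 537 and 49.1 CPM. In the other direction, *cbln9* averaged 18.6 CPM in the *xbp1* and 210 CPM in the *atf6* double mutant, *aqp12*, an aquaporin gene, 4.51 and 48.7 CPM, and *slc27a1b*, a fatty acid transporter gene, 1.35 and 17.0 CPM. *sst1.2* and *gip*, hormone genes as *SST* is, averaged 0.78 and 2 CPM in the *xbp1* and 25.1 and 18.1 CPM in the *atf6* double mutant.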
